A study of Mus musculus with 20 samples.

Results

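The amyloid precursor family and its secretases were followed here as 9 genes, App, Aplp1, Aplp2, Bace1, Adam10, Psen2, Ncstn, Aph1a and Psenen, of the 32285 genes counted in every library. The genes were chosen by name and role, with earlier results of these data known, and not by a threshold on their values. Their UMI counts (unique molecules tagged at the 3′ end of nuclear RNA) were summed per mouse within each class of nuclei. Classes were set by marker genes that include no member.

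App encodes the amyloid precursor protein, and Aplp1 and Aplp2 encode its paralogs. Bace1, the β-secretase, cuts App on the path to amyloid-β. Adam10, the main neuronal α-secretase, cuts within the amyloid-β stretch and so leads away from the peptide. The γ-secretase then cuts the remaining membrane stub. It is a complex of a presenilin (Psen2 encodes one), nicastrin (Ncstn), Aph1 (Aph1a) and the presenilin enhancer (Psenen). Besides App, the γ-secretase and Adam10 cut many other membrane proteins, Notch among them.

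The series holds single-nucleus RNA-seq of the hippocampus of 20 male mice aged 4.5 to 5.5 months. Mice carrying the APPSwe/PS1ΔE9 transgenes (APP/PS1) and wild-type littermates (WT) were sampled awake (Wake) or right after 3 h of anesthesia. Anesthesia was isoflurane lowered to 1.5% (Isofluran), or 150 mg/kg ketamine with 12 mg/kg xylazine (Ketamine). The groups were WT Wake (n = 6), APP/PS1 Wake (n = 3), WT Isofluran (n = 3), APP/PS1 Isofluran (n = 4), WT Ketamine (n = 2) and APP/PS1 Ketamine (n = 2), each mouse being 1 library. The transgenes are driven by a mouse Prnp (prion protein) cassette and WT mice carry none. The series' own text puts 1 mouse more or fewer in each Wake and Isofluran group than the sample labels, which were used here. The paper's legend counts 4 mice each in WT Wake, APP/PS1 Wake and WT Isofluran, and 3 in APP/PS1 Isofluran. No label gives a preparation batch. All Ketamine mice fall in the run of mouse numbers 25 to 29, where the only other mouse is WT Wake mouse 29.

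The libraries held 4743 to 10877 nuclei and 9243992 to 25394891 UMIs each. Of 160777 nuclei, 132165 (82.2%) were placed in a class. The classes named here were dentate granule-like (36405 nuclei), CA1-like (19469), CA3-like (10079), subicular/cortical-like (12582), inhibitory (5556), astrocyte-like (19745), oligodendrocyte-like (16006), oligodendrocyte precursor-like (4044), microglia-like (2844) and endothelial-like (859). Mice 1 to 4, 1 from each Wake and Isofluran group, stood apart with 0.939% to 1.78% of UMIs on mitochondrial genes, against 0.0353% to 0.336% in the others. Pairs of libraries shared 5 to 35 barcodes, at most 0.407% of the smaller library.

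Prnp reads out the genotype label, since the transgene RNA carries Prnp sequence. Levels are given as CPM, the UMIs of a gene per 1000000 UMIs of the same mouse and class. In neurons (all excitatory and inhibitory classes together) Prnp ranged from 30.9 to 167 CPM in the 11 WT mice, with a median of 58.5, and from 49.5 to 444 in the 9 APP/PS1 mice, with a median of 164. Mice 11 (49.5) and 17 (59.8), labelled APP/PS1, lay within the range of most WT mice, and mouse 14 (167), labelled WT, lay above all other WT mice. By label mouse 11 is APP/PS1 Isofluran, mouse 14 WT Wake and mouse 17 APP/PS1 Wake. Whether labels were exchanged, and whether this bears on the group sizes given above, was not tested. Mouse 20, labelled APP/PS1, had 90.4, below WT mice 3, 14 and 19. The difference between labels was 1.27 on the log2 scale (two-sided exact permutation test, p = 0.00792, n = 9 and 11). Mice 11, 14 and 17 were singled out on these Prnp values, so the 1.84 that Prnp came to without them follows from that choice and is no further evidence for the labels. Every genotype result below therefore compares mice as labelled, and is given also without these 3 libraries where that changes it.

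**Figure D1:**
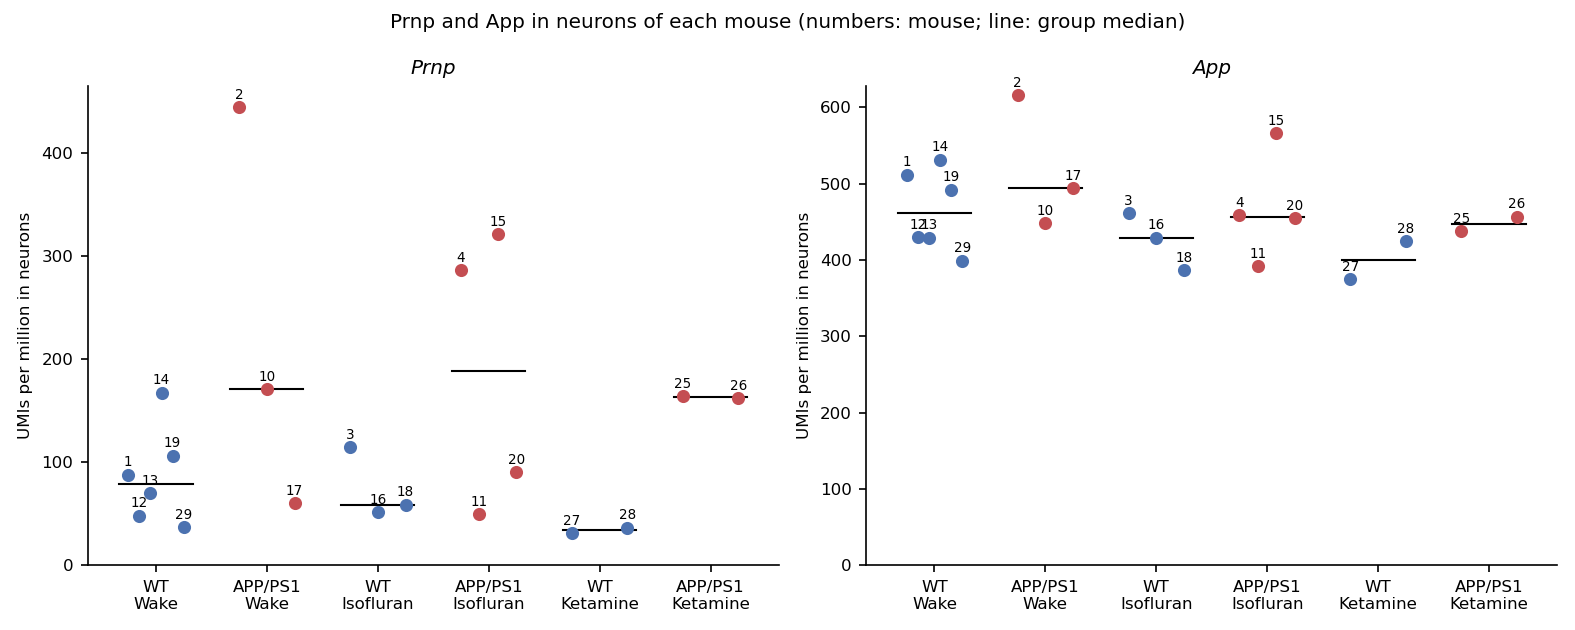
Prnp (left) and App (right) in neurons of each mouse, in CPM on an axis from 0, by label group. Points are mice with their numbers, red for APP/PS1 and blue for WT, and lines are group medians. Prnp of APP/PS1 mice 11 and 17 sits at 49.5 and 59.8 among the WT mice, whereas WT mouse 14 sits at 167. App overlaps between all WT mice (375 to 531) and all APP/PS1 mice (392 to 616).

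App itself differed little between labels in neurons. The WT mice held 375 to 531 CPM (median 429) and the APP/PS1 mice 392 to 616 (median 457), so the ranges overlapped almost fully. The difference was 0.11 on the log2 scale (two-sided exact permutation test, p = 0.177), and 0.17 without mice 11, 14 and 17 (exact p = 0.0493, smallest p possible 5.14e-05). Those mice were chosen on Prnp, the readout of the transgenes. Mouse 11 held the lowest App of the APP/PS1 mice (392) and mouse 14 the highest of the WT mice (531). The smaller p without them is thus no separate evidence for a difference in App. The transgenes end in Prnp sequence, so 3′ counts on App need not include transgene RNA, and App RNA of the mouse gene and of the transgene cannot be told apart here.

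App differed more between cell classes than between treatment groups. App lies on chromosome 16 (84949685 to 85173766, minus strand, GRCm38, protein coding). It was highest in oligodendrocyte-like nuclei, at 1264 ± 170 CPM (SD, n = 20 mice), and next in endothelial-like nuclei, at 976 ± 152 (n = 14). Inhibitory (571 ± 82.2), subicular/cortical-like (528 ± 87.2), CA3-like (494 ± 39.0) and CA1-like (493 ± 61.4) nuclei followed. Dentate granule-like (360 ± 70.8), oligodendrocyte precursor-like (348 ± 50.9) and microglia-like (288 ± 108, n = 19) nuclei were lower, and astrocyte-like nuclei lowest (165 ± 45.1). The lowest oligodendrocyte-like value of any mouse (938) exceeded the highest CA1-like value (671).

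Neighbours in this order were compared within mice by a two-sided permutation test of sign flips, with 100000 resamples and Benjamini-Hochberg adjustment over the 81 pairs of all members. For App, 5 of 9 neighbouring pairs differed, among them oligodendrocyte-like over endothelial-like (0.38 on the log2 scale, adjusted p = 0.00464, 12 of 14 mice) and CA1-like over dentate granule-like (0.47, adjusted p = 0.000162, 20 of 20 mice). CA3-like and CA1-like nuclei (difference 0.0057, SE 0.023) and dentate granule-like and precursor-like nuclei (0.037, SE 0.066) did not differ beyond their spread.

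**Figure D2:**
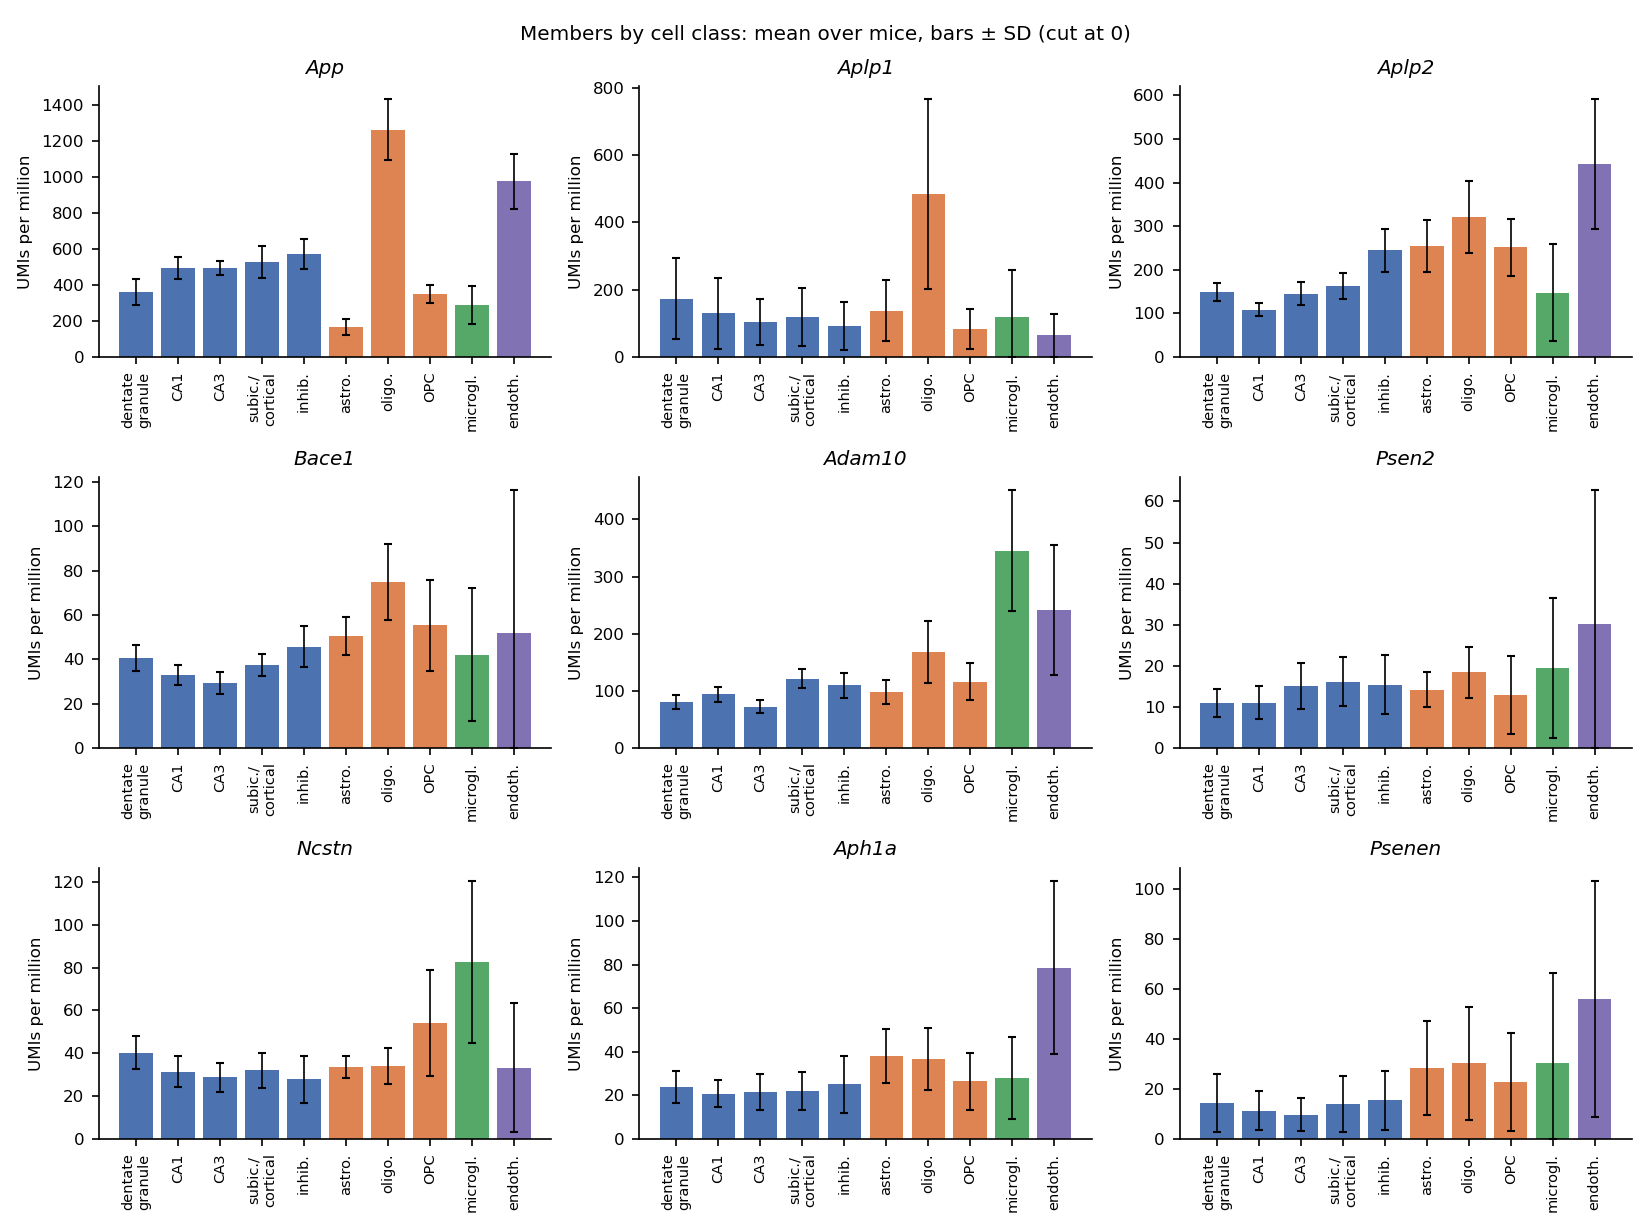
Mean CPM of each member in 10 cell classes, on axes from 0 that differ between panels. Bars are means over mice (n = 20, but 19 microglia-like and 14 endothelial-like) and error bars are ± SD, cut at 0. App, Aplp1 and Bace1 are tallest in oligodendrocyte-like nuclei, Adam10 and Ncstn in microglia-like nuclei, and Aplp2, Psen2, Aph1a and Psenen in endothelial-like nuclei.

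The paralogs did not share one order. Aplp1 (chromosome 7, 30434982 to 30445535, minus strand) was at 485 ± 283 CPM in oligodendrocyte-like nuclei and at 64.5 ± 63.8 (endothelial-like) to 174 ± 120 (dentate granule-like) in the other 9 classes. Oligodendrocyte-like exceeded dentate granule-like nuclei in 20 of 20 mice, by 1.54 on the log2 scale (adjusted p = 0.000162). Aplp2 (chromosome 9, 31149557 to 31211815, minus strand) ranged from 109 ± 14.8 in CA1-like to 443 ± 149 in endothelial-like nuclei, with 321 ± 82.3 in oligodendrocyte-like and 255 ± 59.4 in astrocyte-like nuclei. Among neurons, Aplp2 was higher in inhibitory (245 ± 49.7) than in subicular/cortical-like nuclei (163 ± 30.2) in 20 of 20 mice (0.58, adjusted p = 0.000162). CA3-like exceeded CA1-like nuclei in Aplp2 by 0.41, also in 20 of 20 mice (adjusted p = 0.000162). Thus App was lower in astrocyte-like nuclei than in neurons, whereas Aplp2 was higher.

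That contrast of glial classes with the pooled neurons of the same mouse was tested for each member after the levels had been seen, with the same test, adjusted over 45 comparisons. App in astrocyte-like nuclei was lower by 1.52 on the log2 scale (SE 0.096, 20 of 20 mice, adjusted p = 4.09e-05) and Aplp2 higher by 0.77 (SE 0.077, 20 of 20 mice, adjusted p = 4.09e-05). In oligodendrocyte-like nuclei App (1.46, SE 0.052), Aplp1 (1.90, SE 0.062) and Aplp2 (1.09, SE 0.096) were each higher than in neurons in 20 of 20 mice (adjusted p = 4.09e-05 each). Aplp1 in astrocyte-like nuclei (0.046, SE 0.078, adjusted p = 0.652) was not separable from neurons. The p of 1e-05 behind the smallest adjusted values is the smallest that the resamples can give.

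The secretases that make the first cut were ordered differently from each other. Bace1 (chromosome 9, 45838580 to 45864399, plus strand) was at 74.95 ± 17.1 CPM in oligodendrocyte-like and 55.3 ± 20.6 in precursor-like nuclei, and at 29.4 ± 4.86 in CA3-like nuclei. It exceeded neurons by 1.00 on the log2 scale in oligodendrocyte-like (SE 0.092, 19 of 20 mice) and 0.46 in astrocyte-like nuclei (SE 0.058, 20 of 20 mice; adjusted p = 4.09e-05 each). Adam10 (chromosome 9, 70678997 to 70780229, plus strand) was at 345 ± 106 in microglia-like (n = 19), 242 ± 114 in endothelial-like (n = 14) and 167 ± 54.2 in oligodendrocyte-like nuclei, and lowest in CA3-like nuclei (72.4 ± 11.4). Microglia-like nuclei exceeded neurons in Adam10 in 19 of 19 mice, by 1.84 (SE 0.13, adjusted p = 6e-05). Microglia-like and endothelial-like nuclei did not differ in Adam10 beyond their spread (0.61, SE 0.29, adjusted p = 0.0738).

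The γ-secretase subunits were low, and their order was less certain. Psen2 (chromosome 1, 180227004 to 180263438, minus strand) gave 10.9 ± 3.47 CPM in dentate granule-like and 18.4 ± 6.19 in oligodendrocyte-like nuclei. None of its 9 neighbouring pairs differed, and its endothelial-like level rests on 38 UMIs over 14 mice. Ncstn (chromosome 1, 172066013 to 172082795, minus strand) was at 82.7 ± 37.8 in microglia-like nuclei, 54.2 ± 24.7 in precursor-like nuclei and 27.8 ± 11.0 to 40.3 ± 7.82 in the other classes. Its microglia-like level exceeded neurons in 18 of 19 mice (0.93, SE 0.34, adjusted p = 0.0215).

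Aph1a and Psenen were both higher in astrocyte-like and oligodendrocyte-like nuclei than in neurons. Aph1a (chromosome 3, 95893969 to 95898288, plus strand) was at 38.0 ± 12.5 CPM in astrocyte-like and 36.9 ± 14.2 in oligodendrocyte-like nuclei, and at 20.7 ± 6.12 to 25.1 ± 13.1 in the neuronal classes. It exceeded neurons by 0.73 in astrocyte-like (20 of 20 mice, adjusted p = 4.09e-05) and 0.65 in oligodendrocyte-like nuclei (18 of 20 mice, adjusted p = 6e-05). Psenen (chromosome 7, 30561863 to 30563627, minus strand) was at 28.3 ± 18.8 and 30.3 ± 22.6 in these classes and at 9.59 ± 6.58 to 15.4 ± 11.8 in neuronal classes, a difference of 1.10 and 1.17 (20 of 20 mice, adjusted p = 4.09e-05 each). In precursor-like nuclei neither differed from neurons beyond its spread (Aph1a -0.11, SE 0.30, adjusted p = 0.729, and Psenen 0.40, SE 0.27, adjusted p = 0.225). Aph1a, Bace1, Ncstn and Psenen each overlap a coding gene on the opposite strand (Car14, Rnf214, Copa and U2af1l4), and this kit keeps the strand.

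Of all 81 neighbouring pairs, 20 differed. The order was set by mean CPM, and in 16 pairs the log2 difference within mice had the opposite sign, 0 of them past the threshold. Among these was Psenen in endothelial-like over oligodendrocyte-like nuclei (-0.11). How many such pairs differ for other genes was not counted, so these counts do not set the members apart. With normalization factors across classes (TMM) in place of plain totals, 33 differed in the same order and 8 in the opposite one. Those factors were 1.51 to 3.34 in microglia-like and 1.27 to 2.93 in endothelial-like libraries, so the rank of these 2 classes depended on the scale. On the TMM scale App in endothelial-like nuclei no longer exceeded neurons (0.14, adjusted p = 0.375), nor did Ncstn in microglia-like nuclei (0.23, adjusted p = 0.588). Aplp2 (-1.26, adjusted p = 0.000212) and Bace1 (-1.19, adjusted p = 0.00753) were lower there in microglia-like nuclei. The oligodendrocyte-like results for App, Aplp1, Aplp2 and Bace1 and the microglia-like result for Adam10 (1.04, adjusted p = 5.63e-05) stayed past the threshold.

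Genes of the neuronal check list were counted in the other classes too. These 9 genes, which no gate used, had a median level of 14.5% of their neuronal level in astrocyte-like, 19% in oligodendrocyte-like, 40.1% in precursor-like, 29.5% in microglia-like and 14.6% in endothelial-like nuclei. Single genes of the list ranged from 3.14% to 212%, so some of them are not particular to neurons, and the medians do not measure neuronal RNA alone. With UMIs pooled over all mice, members in these classes lay between 36.9% (App, astrocyte-like) and 562% (Psenen, endothelial-like) of the neuronal level. The pooled values include mice with too few endothelial-like nuclei for the tests within mice. The sign-flip test within mice did not separate Psenen in endothelial-like nuclei from neurons (0.999 on the log2 scale, adjusted p = 0.151). Psenen was higher there in 11 of 14 mice. Without mice 1 to 4 the difference was 0.63 (adjusted p = 0.484, same test). How much of the lower of the member percentages is neuronal RNA was not tested.

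Among the members themselves, mean log2 levels over the 10 classes ran most alike for Aph1a and Psenen (Pearson r = 0.87), Aplp2 and Psenen (0.84), Aplp2 and Aph1a (0.82) and Aplp1 and Bace1 (0.82). Ncstn ran opposite to Aph1a (-0.71). Of 12119 genes, those closest to App over the same 10 classes were Otud4 (0.93), Klc1 (0.91) and Apbb2 (0.91), and those closest to Adam10 were Avl9 (0.97), 2510009E07Rik (0.96) and Git2 (0.96). For Aplp1 they were Ell (0.98), Lhpp (0.97) and Sept1 (0.96), for Aplp2 Nsfl1c (0.96), Dynlt3 (0.96) and Ubxn2a (0.95), and for Bace1 Arfrp1 (0.98), Ibtk (0.97) and Aar2 (0.97). The subunits were closest to Rab37, Fhdc1 and Kif6 (Psen2, 0.86 to 0.88), Phf7, Wdr33 and Tbck (Ncstn, 0.96 to 0.98), Prom1, Snu13 and Edf1 (Aph1a, 0.98 each), and Dpm3 and Sft2d3 (Psenen, 0.99 each). These correlations describe 10 points that share libraries and depth.

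Levels also differed between mice in a way the groups do not give. Aplp1 was higher in mice 1 to 4 than in the other mice in each of 10 classes, by 2.82 to 6.17 times. In oligodendrocyte-like nuclei these mice had 847 to 1180 CPM against 230 to 480 in the other 16, and in dentate granule-like nuclei 309 to 454 against 77.8 to 201. Psenen was 2.89 to 6.70 times higher in them, with 31.9 to 38.9 against 2.27 to 18.6 in dentate granule-like nuclei. Their values and the others' did not overlap in the 9 tested classes for either gene, against 5.64% of all gene and class pairs in which mice 1 to 4 all lay above the rest. App (0.865 to 1.35 times) and Adam10 (0.679 to 1.10 times) overlapped between these mice and the rest in all 10 classes. Mice 1 to 4 are also those with the higher mitochondrial share, and its part in this was not tested. Aplp1 still was highest in oligodendrocyte-like and lowest in endothelial-like nuclei both in mice 1 to 4 (1002 and 140) and in the others (356 and 34.1).

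**Figure D3:**
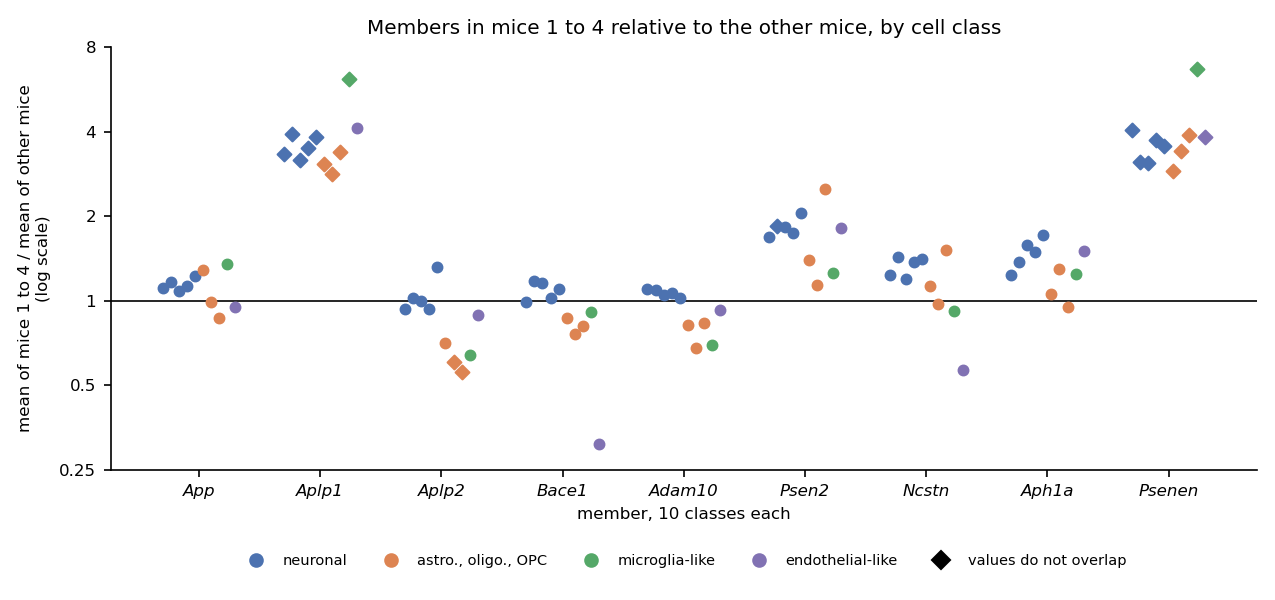
Ratio of the mean level in mice 1 to 4 to that in the other mice, on a log axis, for each member in 10 classes. Colours give the kind of class, and diamonds mark classes where the values of the mice do not overlap. Aplp1 (2.82 to 6.17) and Psenen (2.89 to 6.70) lie above 2 in every class.

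Whether the members differ between the genotypes was asked with edgeR's quasi-likelihood test on the summed counts, fitted over all genes of a class with all 6 groups. It covered 9 classes and 76 pairs of member and class. The filter on low counts removed Psen2 from precursor-like nuclei and Bace1, Psen2, Aph1a and Psenen from microglia-like nuclei, and endothelial-like nuclei were not fitted, since 6 mice, both WT Ketamine mice among them, had fewer than 20. Called means a Benjamini-Hochberg adjusted p under 0.05 over all genes of the class.

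No member was called between APP/PS1 and WT over the states, against 0% of all 103337 gene and class pairs. Without adjustment 4 of the 76 pairs had p under 0.05, beside 2.57% of all pairs, and DESeq2 called 0 members as well. App was higher in APP/PS1 in the fit in 9 of 9 classes, by 0.068 (oligodendrocyte-like) to 0.52 (microglia-like) on the log2 scale. Aplp2 was lower in 9 of 9 classes, by -0.28 to -0.0060. The classes come from the same mice, so here and below a sign shared by classes is not a set of separate results. How many of all genes share a sign over classes was not counted. The median over the 76 pairs was 0.030, and over all pairs 0.0012. Prnp itself, at 0.58 to 2.98 on the log2 scale and unadjusted p of 0.000291 to 0.0174, was called in 0 of 9 classes. Without mice 11, 14 and 17 Prnp was called in 5 of 9 classes, the only 5 calls of any gene, but these mice were chosen on Prnp, so this change is circular. App then stayed uncalled in all 9 classes, at 0.019 to 0.60.

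The member with the smallest p was App in dentate granule-like nuclei. Its TMM-scaled level (CPM with the normalization factors of the fit) was 274 to 441 in the 11 WT mice (median 318) and 299 to 503 in the 9 APP/PS1 mice (median 373). The groups overlapped, and the fitted difference was 0.32 (SE 0.10, edgeR unadjusted p = 0.00512, adjusted p = 1.00). By state it was at 318 to 441 in WT and 375 to 500 in APP/PS1 Wake mice, at 286 to 295 and 299 to 503 in Isofluran mice, and at 274 to 286 and 363 to 373 in Ketamine mice. The Wake mice of the genotypes overlapped, whereas the Isofluran and the Ketamine mice did not, as was so for 2.12% and 37.2% of all genes in this class. In astrocyte-like nuclei App was at 102 to 218 (median 134) in WT and 97.3 to 247 (median 200) in APP/PS1 mice, with a difference of 0.41 (SE 0.18, edgeR adjusted p = 1.00). In microglia-like nuclei App was at 185 to 572 (median 291) in 10 WT and 80.2 to 601 (median 470) in 9 APP/PS1 mice (0.52, SE 0.23, edgeR adjusted p = 1.00). Both ends of that APP/PS1 range come from small samples. Mouse 11 (80.2) held 20 such nuclei with 12110 UMIs, and mouse 10 (601) held 26 with 16468 UMIs.

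Ncstn, the nicastrin gene, gave the other pairs with the smallest p. In inhibitory nuclei it was at 13.7 to 47.6 (median 31.4) in WT and 5.54 to 38.8 (median 25.1) in APP/PS1 mice, a difference of -0.59 (SE 0.24, edgeR adjusted p = 1.00). In astrocyte-like nuclei it was at 24.9 to 41.2 (median 31.6) and 28.3 to 42.3 (median 38.7), a difference of 0.27 (SE 0.13, edgeR adjusted p = 1.00). These ranges overlapped. Within each state no member was called either, with 0 (Wake), 1 (Isofluran) and 2 (Ketamine) of 76 pairs under an unadjusted p of 0.05, beside 2.22%, 2.07% and 3.53% of all pairs, and 0 called by DESeq2. Over all genes edgeR called 0% of pairs in each state. Aplp1 was above 0 in 9 of 9 classes in Wake (0.26 to 1.18) and below 0 in 9 of 9 in Isofluran mice (-0.83 to -0.17). Psenen likewise was above 0 in 8 of 8 (0.18 to 0.70) and then below in 8 of 8 (-0.86 to -0.012). The paper lists Aplp1 among its top genes differing under anesthesia in CA1 neurons. In CA1-like nuclei Aplp1 was at 55.2 to 197 in APP/PS1 and 76.0, 120 and 372 (mouse 3) in WT Isofluran mice. Mice 1 to 4, 1 from each of these Wake and Isofluran groups, stand apart in both Aplp1 and Psenen. The paper's test was run on nuclei with its batches corrected for, unlike the sums per mouse here. The median standard error of a member's log2 difference was 0.18 over states and 0.27 to 0.39 within a state, so log2 differences of that size lay within the error of these mice.

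Isoflurane against wake was the comparison in which members were called, 0 higher and 2 lower of 76 pairs (2.63%). Over all genes and classes 1.78% of pairs were called lower and 2.57% higher. Both members called were Adam10, the α-secretase, in astrocyte-like and in oligodendrocyte-like nuclei. The shares called lower over all genes were 2.83% and 2.43% in these classes.

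In astrocyte-like nuclei Adam10 was at 83.5 to 140 TMM-scaled CPM in the 9 Wake mice (median 118) and at 67.3 to 102 in the 7 Isofluran mice (median 75.5). 5 of the 7 Isofluran mice lay below every Wake mouse, and only mice 15 and 16 reached into the Wake range. The fitted difference was -0.50 on the log2 scale (SE 0.13, edgeR adjusted p = 0.0249). In oligodendrocyte-like nuclei Adam10 was at 160 to 271 in Wake (median 204) and 69.5 to 185 in Isofluran mice (median 136). There, too, 5 of the 7 Isofluran mice lay below every Wake mouse, and mice 11 and 15 did not. The difference was -0.70 (SE 0.19, edgeR adjusted p = 0.0312).

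**Figure D4:**
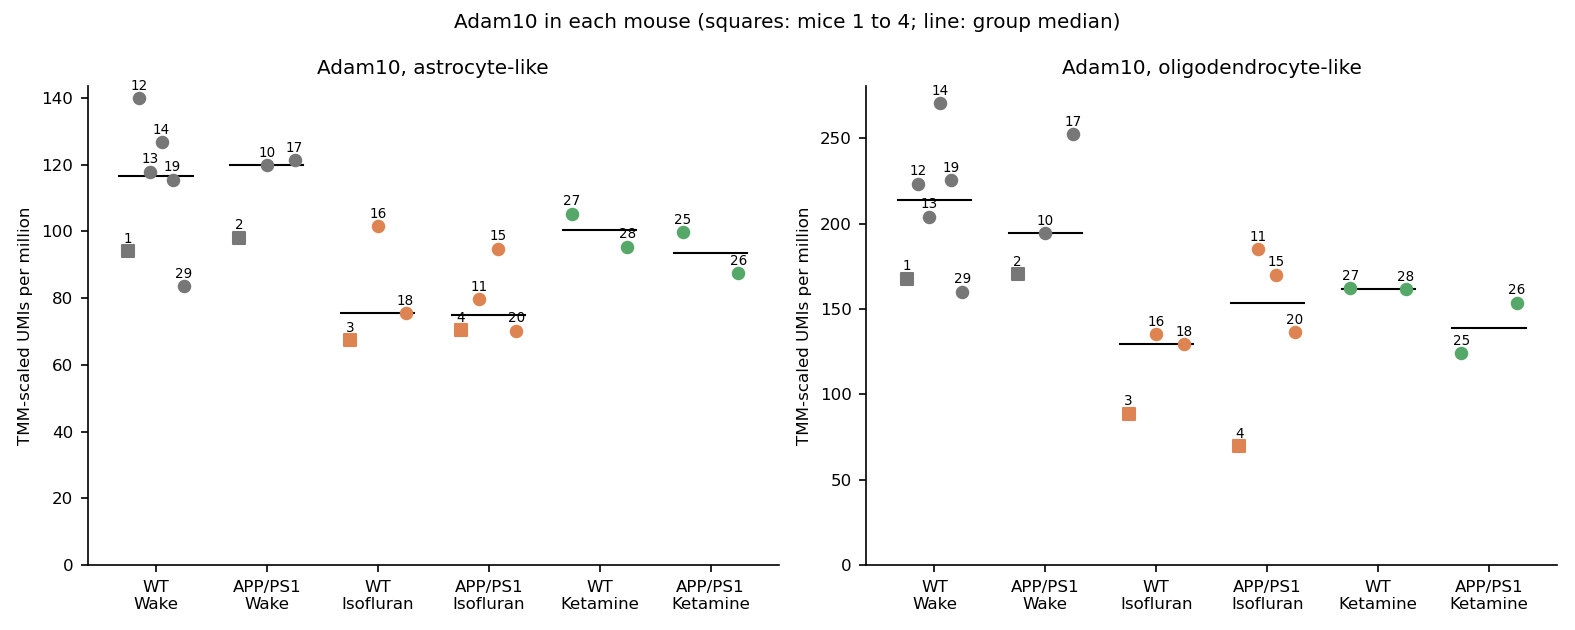
Adam10 in astrocyte-like (left) and oligodendrocyte-like (right) nuclei of each mouse, in TMM-scaled CPM on axes from 0. Points are mice with their numbers, squares are mice 1 to 4, colours give the state and lines are group medians. Most Isofluran mice lie below the Wake mice, with medians of 75.5 against 118 (left) and 136 against 204 (right).

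Within runs of consecutive mouse numbers the difference kept its sign. No label gives these runs, and their bounds were chosen here. Mice 10 to 13 held only 1 Isofluran mouse, and mice 18 to 20 only 1 Wake mouse. In astrocyte-like nuclei Isofluran minus Wake was -0.48 in mice 1 to 4, -0.66 in mice 10 to 13, -0.34 in mice 14 to 17 and -0.67 in mice 18 to 20. In oligodendrocyte-like nuclei it was -1.10, -0.16, -0.78 and -0.76. With these runs as a block the adjusted p were 0.00624 and 0.000554 (edgeR). Without mice 1 to 4 the astrocyte-like difference was -0.47 (edgeR adjusted p = 0.0833) and the oligodendrocyte-like one -0.58 (edgeR adjusted p = 0.0359). Without mice 11, 14 and 17 neither was called (-0.46, edgeR adjusted p = 0.0930, and -0.62, edgeR adjusted p = 0.0991). Leaving out 1 mouse ended the astrocyte-like call for mice 3, 4, 10, 17 and 18 and the oligodendrocyte-like call for mice 3, 10, 13, 14, 17, 18, 19, 20, 27 and 28, the differences lying between -0.59 and -0.44 and between -0.77 and -0.57.

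RNA of other cells and depth, measured beside these results, were as follows. The summed neuronal check genes in oligodendrocyte-like nuclei gave 267 to 1296 CPM in Wake (median 608) and 353 to 1753 in Isofluran mice (median 527), with 2 of 9 genes lower under Isofluran. The 4 microglial check genes gave 1.90 to 145 (median 8.84) and 14.6 to 171 (median 24.7), with 0 of 4 lower. In astrocyte-like nuclei the neuronal genes gave 217 to 904 (median 451) and 291 to 1231 (median 418), with 3 of 9 lower, and the microglial genes 5.24 to 79.5 (median 11.95) and 7.57 to 124 (median 18.4). The oligodendrocyte check genes gave 105 to 835 (median 373) and 162 to 623 (median 307) there, with 3 of 6 lower. No check gene was at 0 in either state. Median UMIs per oligodendrocyte-like nucleus were 614 to 1340 in Wake and 641 to 1060 in Isofluran mice. Per astrocyte-like nucleus they were 642.5 to 2123 and 764.5 to 1646. The part of these check genes and of depth in the Adam10 results was not tested.

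In the other classes Adam10 was not called, though its fitted difference was below 0 in 9 of 9 classes. It was -0.005 in microglia-like nuclei (SE 0.22), where its level was highest, and -0.02 to -0.22 in the 6 remaining classes. Whether the response of Adam10 differed between classes was not tested. A shared sign was not particular to Adam10, since Aplp2 was also below 0 in 9 of 9 classes (-0.43 to -0.083) and App in 7 of 9. Within WT mice (edgeR adjusted p of 0.120 or more over the 76 pairs) and within APP/PS1 mice (0.200 or more) no member was called under isoflurane, where 7 and 2 pairs had an unadjusted p under 0.05, beside 12.6% and 10.2% of all pairs. Over all genes edgeR called 0.694% and 0.455% of pairs. DESeq2 called 0 members within each genotype, beside 1.7% and 1.21% of all pairs. With mice 1 to 4 as a block, Adam10 in oligodendrocyte-like nuclei was called within WT mice (-0.74, edgeR adjusted p = 0.0387), as it was with runs of mouse numbers as a block (-0.85, edgeR adjusted p = 0.0110).

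The next members by p were not called. Aplp2 in dentate granule-like nuclei was at 131 to 186 in Wake (median 168) and 96.5 to 164 in Isofluran mice (median 137), a difference of -0.32 (SE 0.11, edgeR adjusted p = 0.140). App in CA1-like nuclei was at 462 to 644 (median 525) and 416 to 528 (median 448), a difference of -0.23 (SE 0.083, edgeR adjusted p = 0.116). Bace1 in oligodendrocyte-like nuclei was at 73.1 to 104 (median 82.4) and 42.8 to 97.6 (median 54.6), a difference of -0.41 (SE 0.17, edgeR adjusted p = 0.168). The states overlapped in all 3. With the runs of mouse numbers as a block, App in CA1-like (-0.27, edgeR adjusted p = 0.0315) and subicular/cortical-like nuclei (-0.35, edgeR adjusted p = 0.0216) and Bace1 in oligodendrocyte-like nuclei (-0.53, edgeR adjusted p = 0.0280) passed the threshold. Under that block 7.28% of all pairs were called, against 4.35% without it.

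**Figure D5:**
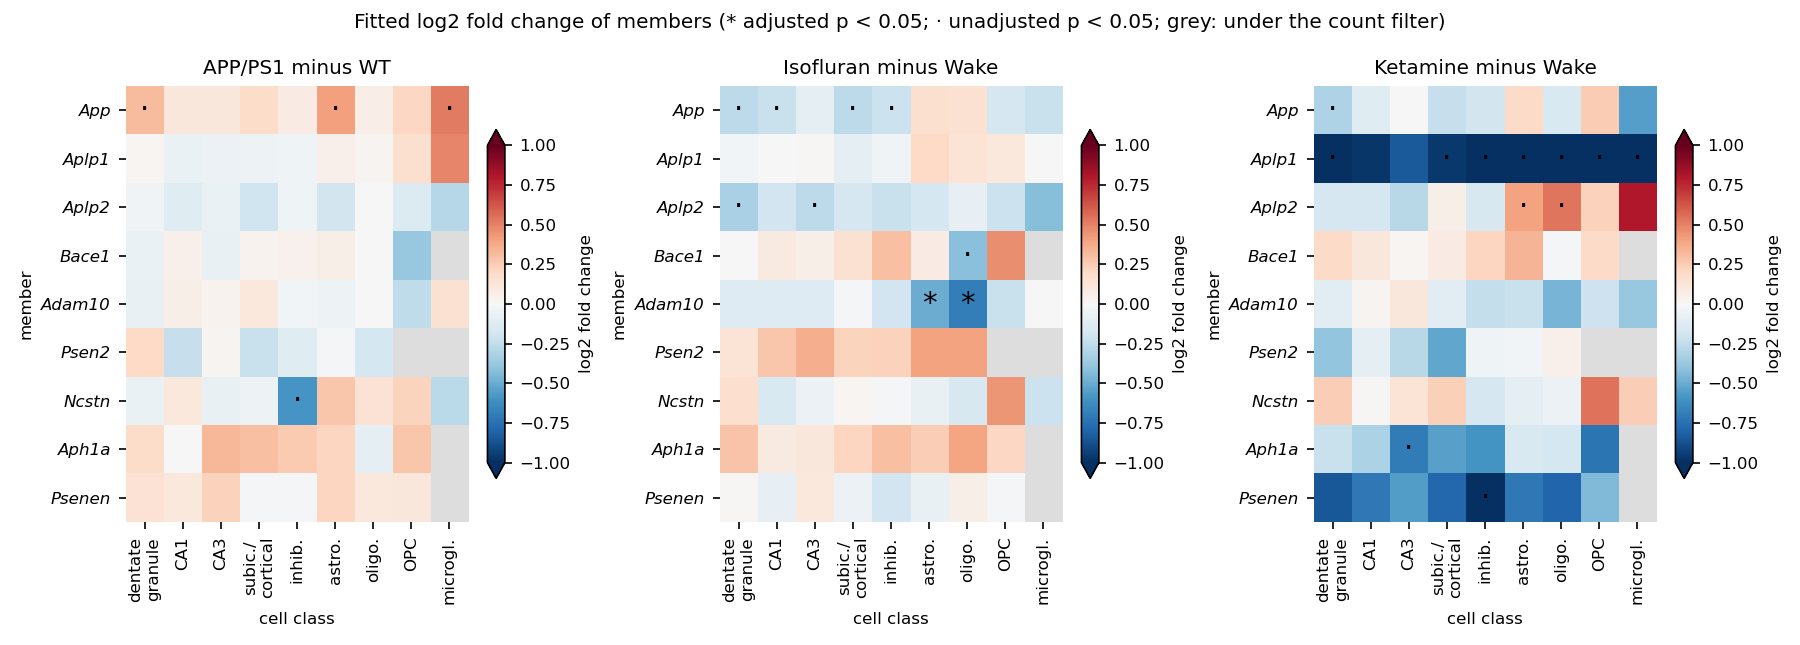
Fitted log2 fold change of each member in 9 classes for APP/PS1 minus WT over states, Isofluran minus Wake and Ketamine minus Wake. Colours run from -1 to 1, beyond which they do not change. Stars mark pairs called after adjustment over all genes of the class, dots pairs with an unadjusted p under 0.05, and grey pairs under the count filter. The 2 stars are Adam10 in astrocyte-like (-0.50) and oligodendrocyte-like (-0.70) nuclei under Isofluran.

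The γ-secretase subunits gave no call under isoflurane. Psen2 was above 0 in the fit in 7 of 7 classes (0.13 to 0.40) and Aph1a in 8 of 8 (0.090 to 0.39), with smallest unadjusted p of 0.0647 and 0.124. Ncstn (-0.21 to 0.44) and Psenen (-0.19 to 0.11) lay on both sides of 0. The median of all 76 pairs was -0.021, and of all genes and classes 0.014.

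Ketamine against wake called 0 of 76 pairs, where 6.48% of all gene and class pairs were called. Without adjustment 12 pairs had p under 0.05, beside 24% of all pairs, and DESeq2 called 0. With no filter on low counts edgeR called 6, 5 of Aplp1 and 1 of Psenen, all lower, where 3.45% of all pairs were called. Aplp2 in oligodendrocyte-like nuclei was at 206 to 423 in Wake (median 303) and 383 to 527 in the 4 Ketamine mice (median 423), a difference of 0.53 (SE 0.20, edgeR adjusted p = 0.124). Aplp1 in the same nuclei was at 316 to 1088 in Wake (median 422) and 253 to 272 in Ketamine mice (median 269). The fitted difference was -1.04 (SE 0.39, edgeR adjusted p = 0.132). Adam10 in these nuclei was at 160 to 271 in Wake (median 204) and 124 to 162 in Ketamine mice (median 158), at -0.46 (SE 0.22, edgeR adjusted p = 0.229). With mice 1 to 4 as a block Aplp1 (-0.57, edgeR adjusted p = 0.0279) and Adam10 (-0.62, edgeR adjusted p = 0.0420) were called in oligodendrocyte-like nuclei, where 8.29% of all pairs were called. With runs of mouse numbers as a block neither was called, where 0.0203% of all pairs were called. Wake mouse 29, in the run of the Ketamine mice, had 160 for Adam10 in these nuclei, within the Ketamine range. Aplp1 was below 0 in 9 of 9 classes (-2.82 to -0.84), and in 7 of them the unadjusted p was under 0.05.

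Mice 1 and 2, whose Aplp1 was high in every class, are Wake mice, and no Ketamine mouse has such a library. Without mice 1 to 4 Aplp1 in oligodendrocyte-like nuclei differed by -0.59 (edgeR adjusted p = 0.0393). Beside Wake mouse 29 alone, in the same run of numbers, the 4 Ketamine mice differed by -0.35 in Aplp1 and 0.079 in Aplp2. Psenen in inhibitory nuclei was at 4.96 to 39.9 in Wake (median 16.7) and 2.77 to 9.35 in Ketamine mice (median 4.85), at -1.76 (SE 0.67, edgeR adjusted p = 0.1499), and -0.22 beside mouse 29. This class gave 262 Psenen UMIs over all mice. Its Ketamine libraries held only 370223 to 620480 UMIs, so the Ketamine levels rest on few Psenen UMIs. Aplp1 in precursor-like nuclei (24.6 to 190 in Wake, 31.6 to 46.2 in Ketamine mice, -1.35, SE 0.56) and App in dentate granule-like nuclei (318 to 500 and 274 to 373, -0.31, SE 0.13) overlapped between the states (edgeR adjusted p = 0.221 and 0.121). Beside mouse 29 alone these differences were -0.46 for Aplp1 and 0.025 for App, so that of App changed its sign. Ketamine and the run of mice 25 to 29 cannot be told apart except through mouse 29.

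The neuronal check genes in the glial classes moved with ketamine as well. In oligodendrocyte-like nuclei the summed neuronal check genes gave 206 to 407 CPM in Ketamine mice (median 246) against 267 to 1296 in Wake mice (median 608), and 9 of 9 genes were lower. In astrocyte-like nuclei they gave 149 to 287 (median 199) against 217 to 904 (median 451), again with 9 of 9 lower. Microglial check genes were lower in 4 of 4 cases in both classes. The part of this in the ketamine values of the members was not tested.

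Whether isoflurane acted differently in the genotypes was asked with the interaction. It called 0 of 76 pairs, against 0% of all pairs, with 0 under an unadjusted p of 0.05, beside 3.39% of all pairs, and 0 called by DESeq2. The pairs with the smallest p were Aplp1 in CA1-like (-1.49, SE 0.75) and subicular/cortical-like nuclei (-1.18, SE 0.73), Ncstn in inhibitory (-0.90, SE 0.48), App in microglia-like (-0.76, SE 0.46) and Psen2 in astrocyte-like nuclei (-0.66, SE 0.42). Their edgeR adjusted p were 0.877 or more. Of the APP/PS1 mice behind the App value, mice 10 and 11 held only 26 and 20 microglia-like nuclei. Without mice 1 to 4, which stand apart in Aplp1, the Aplp1 values came to -0.68 and -0.61 (edgeR adjusted p = 0.970 and 0.920). Standard errors of this size leave differences of the same order undetectable with 3 to 6 mice per group.

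Around the members, 32 other genes of App cutting, transport and amyloid-β handling were counted in 250 pairs of gene and class. No genotype contrast called any of them, with 9 of 250 pairs under an unadjusted p of 0.05 over states and 4 (Wake), 6 (Isofluran) and 12 (Ketamine) within them, beside 2.57%, 2.22%, 2.07% and 3.53% of all pairs. DESeq2 called 0. Aph1b and its paralog Aph1c, both on the list, are near-identical copies whose reads the counting could split, so the values of both are uncertain. The pairs with the smallest p over states were Apba1 in microglia-like (-0.57), Aph1b in subicular/cortical-like (0.50) and Apbb1 in astrocyte-like nuclei (0.78), with edgeR adjusted p of 1.00. Within the states they were Apbb1 in astrocyte-like (0.82), Dab1 in precursor-like (-0.51) and Aph1b in subicular/cortical-like nuclei (0.56) for Wake, Mme in dentate granule-like (1.14), Ece1 in astrocyte-like (-0.82) and Aph1b in subicular/cortical-like nuclei (0.60) for Isofluran, and Apbb1 (0.87), Reln (-3.45) and Tmed10 (0.80) in CA3-like nuclei for Ketamine, all uncalled. The interaction called 0 as well, with Reln in precursor-like (3.49, SE 1.22), Fbxo2 in CA1-like (-2.08, SE 0.73) and Apbb1 in astrocyte-like nuclei (-1.14, SE 0.46) at the smallest p.

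Isoflurane against wake called 6 of these 250 pairs higher (2.4%) and 10 lower (4%), beside 2.57% and 1.78% of all pairs. The X11 adaptors Apba1 and Apba2, which bind the tail of App, were lower in 5 of these pairs. Apba2 was at 190 to 296 in Wake (median 215) and 88.4 to 174 in Isofluran mice (median 118) in astrocyte-like nuclei. The fitted difference was -0.83 (SE 0.14, edgeR adjusted p = 0.00118). Apba2 was also lower in CA1-like (-0.43) and subicular/cortical-like nuclei (-0.42), and Apba1 in inhibitory (-0.55) and astrocyte-like nuclei (-0.47). Reln, the secreted ligand of lipoprotein receptors, was lower in inhibitory nuclei (320 to 505 in Wake, 138 to 281 in Isofluran mice, -0.75, edgeR adjusted p = 0.0114). Dab1, the adaptor of the Reln receptors, was lower in astrocyte-like nuclei (-0.37). Gsap in astrocyte-like (-0.56), the sorting receptor Sorcs1 in CA1-like (-0.61) and Apbb1ip in oligodendrocyte-like nuclei (-0.97) were lower too.

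Oligodendrocyte-like nuclei held 3 of the 6 pairs called higher. Bin1, a membrane-bending protein of endocytosis, was at 722 to 1158 in Wake (median 892) and 1206 to 2017 in Isofluran mice (median 1401). The fitted difference was 0.80 (SE 0.15, edgeR adjusted p = 0.00249). Adam9, another ADAM protease, was higher by 0.77 and Apbb2, an adaptor of the App tail, by 0.62. The other 3 were Aph1c, a paralog of Aph1a whose counts are uncertain beside its copy Aph1b, in CA3-like (1.11), CA1-like (0.64) and astrocyte-like nuclei (0.75). Within WT mice Apba2 in astrocyte-like (-0.89) and Apbb1ip in oligodendrocyte-like nuclei (-1.22) were called, 2 of 250 pairs lower (0.8%) beside 0.317% of all pairs, and Apba2 in dentate granule-like nuclei (-0.44) was next but uncalled. Within APP/PS1 mice 0 were called, Bin1 in oligodendrocyte-like (0.91), Aph1c (1.22) and Apba2 in astrocyte-like nuclei (-0.76) having the smallest p. The 16 calls over genotypes came down to 7 without mice 1 to 4, as all pairs called fell from 4.35% to 1.97%, and to 5 to 10 when mouse 3, 4, 10, 16, 18 or 20 was left out.

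Ketamine against wake called 6 pairs higher (2.4%) and 5 lower (2%), beside 3.35% and 3.13% of all pairs. Sorl1, a sorting receptor that retains App, was at 29.8 to 71.9 in Wake and 77.6 to 96.3 in Ketamine mice in oligodendrocyte-like nuclei (0.97, edgeR adjusted p = 0.0150), where Adam9 (0.93) and Bin1 (0.69) were higher as well. Apba2 in inhibitory (0.54), Tmed10 in astrocyte-like (0.50) and Aph1c in subicular/cortical-like nuclei (1.02) were the other higher pairs. Apba1 was at 85.3 to 119 in Wake and 42.5 to 58.5 in Ketamine mice in astrocyte-like nuclei (-0.999, edgeR adjusted p = 0.00337), and Apbb1 (-1.49) was lower there. In the same nuclei the neuronal check genes summed to 149 to 287 CPM (median 199) in Ketamine and 217 to 904 (median 451) in Wake mice, with 9 of 9 lower on average, and their part in these values was not tested. Lrp8, a Reln receptor, was lower in dentate granule-like nuclei (-0.70), and Clu, the clusterin gene, in CA1-like (-1.85) and subicular/cortical-like nuclei (-1.64). The summed astrocytic check genes were measured because astrocytes carry much Clu. In CA1-like nuclei they were at 150 to 161 in Ketamine mice (median 160.0) and 135 to 378 in Wake mice (median 162). In subicular/cortical-like nuclei they were at 415.5 to 544 (median 460) and 436 to 725 (median 579). In each of these classes 3 of the 4 genes were lower on average in Ketamine mice. Their part in the Clu values was not tested. With runs of mouse numbers as a block 0 of the 250 pairs were called in place of 11, as all pairs called fell from 6.48% to 0.0203%, and leaving out mouse 2, 25, 26, 27 or 28 left 1 to 5.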

How the data were processed

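The authors isolated hippocampal nuclei, prepared 10x Genomics 3′ single-nucleus libraries and counted UMIs with Cell Ranger 5.0.0 against mm10, introns included. The deposited matrices hold raw counts, 1 matrix per mouse, with no normalization. Background removal named in the methods could not be seen in the file headers. Coordinates are from GENCODE M21 on GRCm38, the assembly behind mm10.

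Members and gene lists were chosen with earlier results of these data known. Nuclei were placed in classes by a Poisson likelihood over marker genes (6 rounds, margin of 3 natural-log units). This replaced a gate of 3 marker UMIs with a 75% share, which placed 50.1% of nuclei and nearly no precursors. The replacement was made before member values were looked at. Of all nuclei, 9.56% stayed ambiguous, and 8.24% were dropped as pairs because a mix of 2 classes was likelier by 5 units. No doublet caller was run. The mixed mural and fibroblast class was left out.

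Counts were summed per mouse and class with at least 20 nuclei. Levels are plain CPM. Contrasts used edgeR 4.0.16 in R 4.3.3 (filterByExpr, TMM, quasi-likelihood test, 6 groups, no covariates, since the batches of 4 that the study's methods name and correct for are given in no label), with Benjamini-Hochberg adjustment over all genes of a class. "TMM-scaled" levels carry the factors of that fit. Class orders and glia against neurons used sign-flip tests on log2(CPM + 1) with 100000 resamples. Python 3.11.15, scipy 1.17.1 and DESeq2 1.42.0 served for the rest. The edgeR steps were tested only on counts simulated from CA1-like sums, with changes larger than those of the called members. The simulation held no differences between runs of mice, so it does not cover smaller changes, other classes or such runs. For each member the 3 genes of most similar level over classes were named, except 1 gene that is not reported here.

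Named pairs are those called, plus the 3 pathway pairs of smallest p per contrast and, for genotype over states, both anesthetics against wake and the interaction, the 5 member pairs of smallest p. Pairs of App in subicular/cortical-like nuclei, of Adam10 within WT mice and of Adam10 under ketamine were named after their values were seen. Alternatives were DESeq2, RLE factors, no filter on low counts, blocks, other gates and leaving out mice. They included gates and sample sets added after the data were seen, among them glia against pooled neurons.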

Additional observations from a re-analysis of the deposited data

Results flagged for a closer look

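Aplp1 of WT Wake mouse 1 stood apart from the 5 other mice of its group in 3 classes. Its TMM-scaled level was 259.9 CPM in CA1-like nuclei against 65.6 to 118 in the others. It was 241.4 against 64.6 to 115 in subicular/cortical-like nuclei, and 884.7 against 316 to 439 in oligodendrocyte-like nuclei. The gap to the nearest mouse, as a share of the whole range, was 0.729, 0.716 and 0.783, above Dixon's critical value. Of 38 groups of member and class examined this way chance gives about 1 in 20. Mouse 1 is the only one of mice 1 to 4 in this group.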

How the results depend on the processing

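The genotype and interaction contrasts called 0 members under every alternative run. For members under isoflurane (2 calls), 1 was left with no filter on low counts, without mice 1 to 4, without the ketamine mice, under the stricter gate and with a likelihood margin of 10. There were 0 without mice 11, 14 and 17, and 5 with runs of mouse numbers as a block. Leaving out 1 mouse gave 0 to 3. Of all pairs, 4.35% were called as reported, 2.01% with no filter, 1.97% without mice 1 to 4, 3.63% without the ketamine mice, 2.97%, 3.94% and 4.92% under the looser, first-written and stricter gates, 4.18% with the margin of 10, 4.03% without mice 11, 14 and 17 and 7.28% with the block of runs. Within genotypes (0 calls) both blocks gave 1. Under ketamine (0 calls) no filter gave 6, mice 1 to 4 as a block gave 2 (Aplp1 and Adam10 in oligodendrocyte-like nuclei) and leaving these mice out gave 1.

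In the pathway list, no filter gave 3 calls for genotype and 4 for the interaction, in place of 0. Under isoflurane (16) there were 7 without mice 1 to 4, 9 under the looser gate, and 7 under the stricter and the first-written gate, with 5 to 19 when 1 mouse was left out. Within genotypes (2) DESeq2 gave 12, no filter 10, the block of runs 11, the block of mice 1 to 4 gave 8, the looser and first-written gates 0, the stricter gate and the margin of 10 gave 1, and leaving out 1 mouse 0 to 5. Of all pairs, DESeq2 called 1.7% in WT and 1.21% in APP/PS1 mice in place of 0.694% and 0.455%, and the block of runs 1.99% and 1.64%. Under ketamine (11) DESeq2 gave 23, no filter 29, the block of runs 0, leaving out mice 11, 14 and 17 gave 5, the looser and first-written gates 4, the stricter gate 5, and leaving out 1 mouse 1 to 16. Of all pairs, ketamine called 6.48% as reported, 7.64% with DESeq2, 3.45% with no filter, 0.0203% with the block of runs, 4.18% without mice 11, 14 and 17, and 4.05%, 3.92% and 3.78% under the looser, first-written and stricter gates, 8.29% with mice 1 to 4 as a block and 4.74% without them.

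The order of classes (20 of 81) gave 1 of 24 pairs under the stricter gate, 10 of 61 under the first-written gate, and 33 with TMM factors across classes, with 17 to 25 when 1 mouse was left out. Ncstn in astrocyte-like nuclei against neurons turned from 0.0057 to -0.17 on the TMM scale. App in the label check rose to 0.17 without mice 11, 14 and 17, and ranged from 0.067 to 0.15 when 1 mouse was left out, and Prnp from 1.08 to 1.48. Of the named single values recomputed, 693 kept their direction and side of the threshold, 30 lost the call and 17 gained it. The causes were not tested, except that the stricter gate left 6 classes without a fit, the first-written gate 4, and the looser gate and the margin of 10 left 1 each. No paired analysis was possible because each mouse number occurs once in the series, so no number pairs mice across groups. Runs of numbers and mice 1 to 4 served only as blocks. Low subunit counts, such as 38 Psen2 UMIs in endothelial-like nuclei, limit what could be detected.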
